A study of Mus musculus with 8 samples.

Results

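The 8 genes of glucose entry and glucose-6-phosphate handling described here are 8 of the 32531 gene symbols in the count table and were followed in islets with Notch activated in β cells. They were chosen by symbol: the glucose transporter genes Slc2a1, Slc2a2 and Slc2a3, the regulator gene Gckr, the glucose-6-phosphatase catalytic subunit genes G6pc, G6pc2 and G6pc3, and the glucose-6-phosphate transporter gene Slc37a4. Islet RNA was sequenced from 4 control mice (RIP-Cre+, Rosa26-rtTA+, tetO_NICD-) and from 4 β-tetO-NICD mice (RIP-Cre+, Rosa26-rtTA+, tetO_NICD+). Both groups drank doxycycline (Dox) for 8 weeks and were of mixed C57BL/6J, 129X1/SvJ and BALB/c background, so the controls carried Cre, the transactivator and the drug but not the transgene. RIP-Cre is driven by an insulin gene promoter, which directs Cre to β cells, and Cre allows the transactivator rtTA to be made from the Rosa26 locus. With Dox, rtTA then turns on tetO_NICD, which encodes the Notch1 intracellular domain (NICD), the active part of the receptor.

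A β cell senses glucose by taking it up and phosphorylating it. In rodents, uptake runs mainly through the transporter Glut2, the product of Slc2a2, which lets sugar equilibrate across the membrane. The phosphorylation step is opposed in islets by the phosphatase encoded by G6pc2, which turns glucose-6-phosphate back into glucose in the endoplasmic reticulum, and by cycling substrate it sets how strongly a given glucose level drives secretion.

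In β-tetO-NICD islets, both of the abundant islet forms were lower: G6pc2 RNA was 5.33-fold lower and Slc2a2 RNA 3.47-fold lower than in controls, each as a ratio of group means. Slc2a1, the gene of the widely expressed transporter Glut1, was 2.09-fold lower. The broadly expressed phosphatase gene G6pc3 and the glucose-6-phosphate transporter gene Slc37a4 had nearly equal means in the groups. The liver forms G6pc and Gckr stayed at 4 counts or fewer in every library. Of the 6 members with enough counts to test, 3 passed the threshold, all 3 lower in β-tetO-NICD islets, against 6.76% of all 15082 tested genes called in either direction and 2.57% called lower. With control 2, control 4 or β-tetO-NICD library 2 left out, 1 of the 3 calls was left, that of G6pc2. The median log2 fold change was −0.75 over these 6 genes and 0.0007 over all genes tested.

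Total counts were 22430941 to 25950164 per control library and 21701223 to 26413146 per β-tetO-NICD library, and a floor of 3 counts equalled 0.119 to 0.138 and 0.0996 to 0.151 CPM (counts per library size after TMM normalization), which covers counting error only. Notch1 reads, which can come from the gene or the transgene, numbered 1051 to 1562 per control and 11388 to 36628 per β-tetO-NICD library. Among islet markers, Ins1 and Ins2 took 15.0% to 17.3% of control counts and 6.16% to 13.9% of β-tetO-NICD counts, and acinar markers were present at 68237 to 135852 and 56093 to 190705 summed CPM. The β-tetO-NICD columns are numbered 1, 2, 4 and 5 while the mice are labelled 1 to 4, so libraries 4 and 5 were used as members of the group tied to no particular mouse. The libraries also split by a trend of expression with transcript length: the rank correlation of length with deviation from the mean library was 0.418, 0.468, 0.498 and 0.444 in controls 1, 2 and 4 and β-tetO-NICD library 1, and −0.172, −0.522, −0.355 and −0.516 in control 3 and libraries 2, 4 and 5 of that group. The Y-linked gene Eif2s3y was counted in 3 libraries (controls 2 and 4 and β-tetO-NICD library 5) and had at most 1 count in the other 5, although the study describes islets for gene expression as taken from males. The fold changes of members that passed are given with and without these libraries, whereas shares, count ratios and correlations cover all 8.

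**Figure D1:**
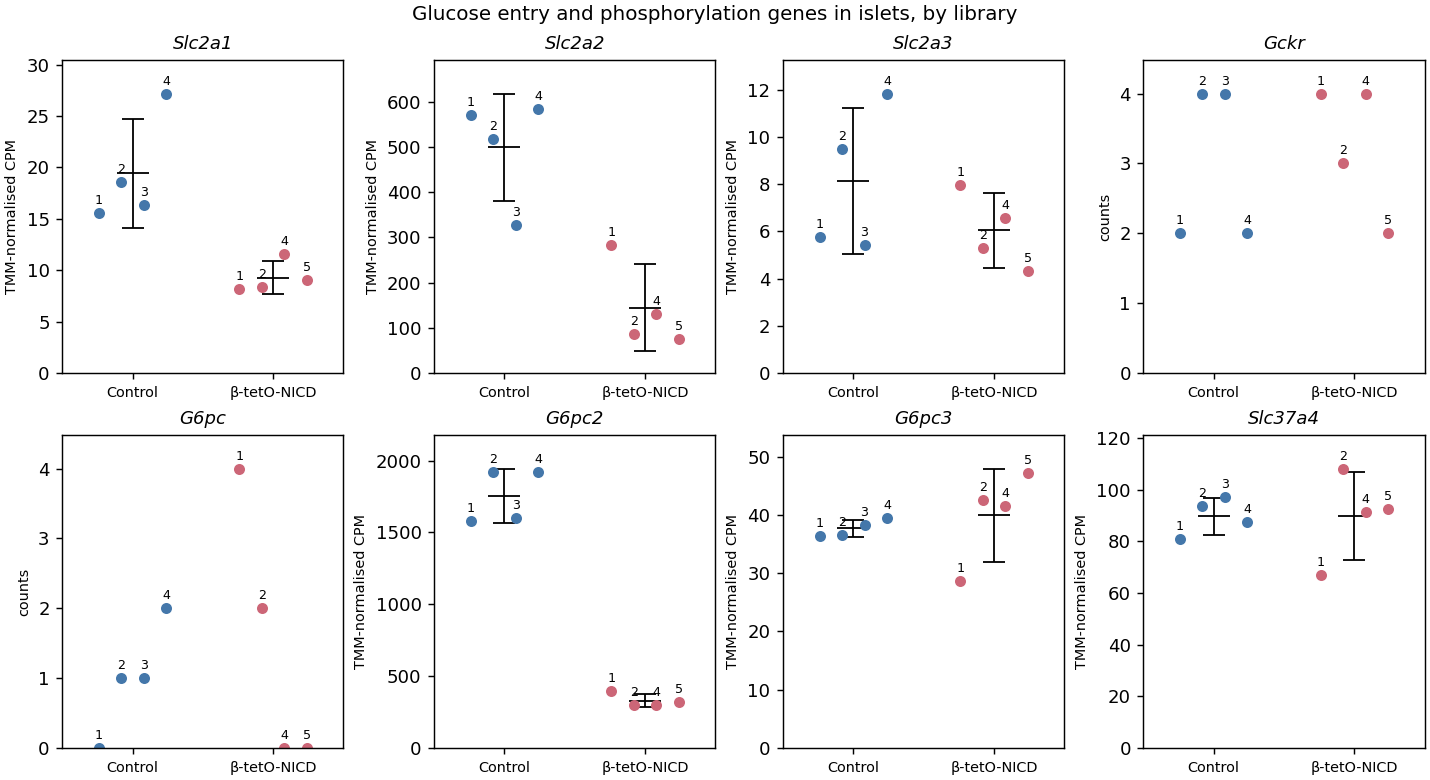
Expression of the 8 genes in each library (points, numbered by library) of the control and β-tetO-NICD groups. Of the panels, 6 show normalised CPM with the mean and SD of 4 libraries (black), the panels of Gckr and G6pc show raw counts, and all axes start at 0. The groups are apart for Slc2a1, Slc2a2 and G6pc2, and overlap for the other 5 genes.

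The sequences just upstream of G6pc2 and Slc2a2 are shown because these 2 genes carry the largest falls and their annotated starts agree between RefSeq and GENCODE M21. Each is the 250 bases before the start site on the plus strand (RefSeq, GRCm38.p6), at chr2:69210823-69211072 for G6pc2 and chr3:28697653-28697902 for Slc2a2. Capitals mark TTCCCA, the reverse strand reading of TGGGAA, the core letters bound by RBPJ, the DNA-binding partner of NICD.
G6pc2: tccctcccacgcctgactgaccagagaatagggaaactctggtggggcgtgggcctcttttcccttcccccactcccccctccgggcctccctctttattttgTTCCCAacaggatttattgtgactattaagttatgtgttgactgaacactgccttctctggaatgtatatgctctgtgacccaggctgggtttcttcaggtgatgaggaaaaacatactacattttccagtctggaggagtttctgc
Slc2a2: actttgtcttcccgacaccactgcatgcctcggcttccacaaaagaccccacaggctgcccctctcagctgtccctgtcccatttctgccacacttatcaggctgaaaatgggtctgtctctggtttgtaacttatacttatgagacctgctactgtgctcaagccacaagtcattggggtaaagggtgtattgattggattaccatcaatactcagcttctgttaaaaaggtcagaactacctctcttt

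Letters of 4 kinds were searched on both strands of these windows: TGGGAA, the E-box CANNTG, the homeodomain core TAAT and GTTAAT, which is part of the site of HNF1 factors and contains TAAT. RefSeq promoters were matched for 7 of the 8 genes, all but Slc2a3. TGGGAA was present once in the G6pc2 window, at −147 counted from the start site, and once in the G6pc3 window, at −162, and was not among the letters of the other 5 windows. Of all 32851 promoter windows of this length, 21.6% hold it. The E-box letters began at −51 in G6pc2 and at −185 in Slc2a2, and 66.2% of all windows hold them. TAAT began at −123 in G6pc2 and at −51 in Slc2a2, and 54.9% of all windows hold it. GTTAAT, held by 6.43% of all windows, was found only in the Gckr and G6pc windows of these 7. G6pc3, whose window also holds TGGGAA, did not pass the test of expression. Its window ends at 102189698, inside the gene as annotated from 102189620 in GENCODE M21. Binding of RBPJ to these letters was not tested.

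Among the 3 transporter genes, Slc2a2 (ENSMUSG00000027690, GRCm38 chromosome 3, 28697903 to 28731359, plus strand, 11 exons in a longest transcript of 5569 bases) was the most abundant. It had 572, 518, 328 and 584 CPM in controls 1 to 4, and 284, 87.1, 131 and 74.0 CPM in libraries 1, 2, 4 and 5 of the β-tetO-NICD group. Every β-tetO-NICD library was below every control, but library 1 lay close to control 3, which was the lowest control. The mean fell from 500.4 ± 118 to 144 ± 96.6 CPM (SD over 4 libraries each). The log2 fold change was −1.80 ± 0.41 (SE, 95% interval −2.72 to −0.87), with an adjusted p of 0.0331 by edgeR's quasi-likelihood test. The spread among the β-tetO-NICD libraries was wide, with a coefficient of variation of 67.0% against 23.7% in controls. Such a fall in bulk RNA can come from fewer β cells or from less RNA per cell, and these cannot be told apart here.

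The call for Slc2a2 depended on which libraries were included. With 1 library left out at a time, the log2 fold change lay between −2.36 and −1.58 and passed 0.05 in 2 of 8 fits, those without control 3 (adjusted p = 0.0367, edgeR) and without β-tetO-NICD library 1 (adjusted p = 0.00137, edgeR). With the length trend of each library as a covariate, the log2 fold change was −1.10 and the adjusted p 0.0171 by edgeR. Among the 4 libraries with a positive length trend, library 1 was below the 3 controls at 284 against a mean of 558 CPM. Among the 4 with a negative trend, the mean was 97.5 CPM in 3 β-tetO-NICD libraries against 328 CPM in control 3. In the 5 libraries without Eif2s3y counts it was −1.42 (adjusted p = 0.311, edgeR). The part of the length trend in the Slc2a2 result was not tested further.

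Slc2a1 (ENSMUSG00000028645, chromosome 4, 119108711 to 119137983, plus strand, 10 exons) had 15.6, 18.6, 16.3 and 27.2 CPM in controls 1 to 4, and 8.17, 8.34, 11.6 and 9.07 CPM in libraries 1, 2, 4 and 5 of the β-tetO-NICD group. The groups did not overlap, and control 4 was the highest library. The mean fell from 19.4 ± 5.34 to 9.28 ± 1.56 CPM (SD over 4 libraries each). The log2 fold change was −1.06 ± 0.22 (SE, 95% interval −1.54 to −0.58), with an adjusted p of 0.0202 by edgeR's quasi-likelihood test. The fall stayed between −1.18 and −0.85 with 1 library left out and passed in 5 of 8 fits. It did not pass without control 2 (adjusted p = 0.0518), control 4 (0.0540) or β-tetO-NICD library 2 (0.0804), nor with the length trend as a covariate (log2 fold change −1.01, adjusted p = 0.118, all by edgeR). In the 5 libraries without Eif2s3y counts it was −0.76 (adjusted p = 0.257, edgeR). Glut1 is made by most cell types, endothelial cells among them, and the 7 endothelial markers summed to 462 to 759 CPM in controls against 576 to 711 CPM under NICD. By edgeR 0 of these 7 passed, and 2 were below an unadjusted p of 0.05, both higher. The median log2 fold change of the 7 was −0.06.

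Slc2a3 (ENSMUSG00000003153, chromosome 6, 122727809 to 122801640, minus strand), the gene of the high-affinity transporter Glut3 known best from neurons, was the least abundant of these 3 transporters. It had 5.76, 9.5, 5.42 and 11.9 CPM in controls 1 to 4 and 7.98, 5.28, 6.57 and 4.33 CPM in libraries 1, 2, 4 and 5 of the β-tetO-NICD group. The groups overlapped. The log2 fold change was −0.43 ± 0.30 (SE, 95% interval −1.10 to 0.25, adjusted p = 0.334, edgeR), so a fall of the size seen in Slc2a1 is within the interval. The 5 markers of neurons and Schwann cells summed to 75.5 to 114 CPM in controls against 65.3 to 83.7 CPM under NICD. The sign of the Slc2a3 value turned with the length trend as a covariate, to 0.06.

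There are 2 antisense genes annotated on the strand opposite Slc2a1 and 1 opposite Slc2a2, which were not analysed here, and whether strand was used in the pseudoalignment is not given in the sources used here. The processed pseudogene Gm4482 lies within Slc2a3 and had at most 1 count in any library.

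Across genes, levels were compared as CPM per kilobase of the longest transcript. On this scale Slc2a2 was at 89.9 ± 21.3 in controls (SD over 4 libraries), Slc2a1 at 5.96 ± 1.64 and Slc2a3 at 1.30 ± 0.494. In β-tetO-NICD islets the same order held, at 25.9 ± 17.3, 2.85 ± 0.479 and 0.966 ± 0.254. Slc2a2 made up 92.4% ± 1.77 of the summed level of the 3 transporters in controls and 84.5% ± 5.99 under NICD (SD over 4 libraries each). Library 1, at 93.1%, sat among the controls, whereas libraries 2, 4 and 5 were at 82.1%, 83.7% and 79.3%, below the lowest control at 90.9%. Library 1 shares a positive length trend with controls 1, 2 and 4, and the part of that trend in these shares was not tested. The Slc2a3 share was 1.34% ± 0.349 in controls against 3.66% ± 0.932 under NICD, with no overlap between groups, although the level of Slc2a3 did not pass the test. Slc2a2 makes up most of the sum, so this share depends on the Slc2a2 level, and the mean of Slc2a3 itself was not higher under NICD.

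**Figure D2:**
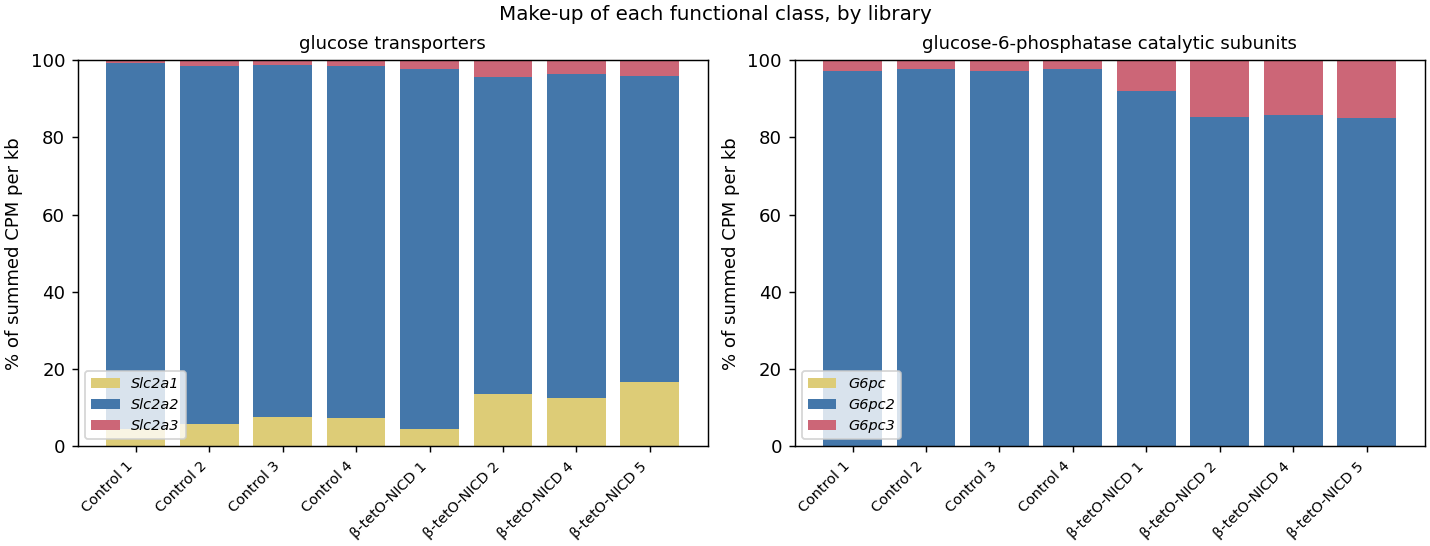
Share of each gene in the summed CPM per kilobase of its class, one bar per library, for the 3 transporters (left) and the 3 phosphatase catalytic subunits (right, where G6pc is too low to see). G6pc2 takes 97.2% to 97.8% of its class in controls against 85.0% to 92.0% under NICD, while the Slc2a2 share of β-tetO-NICD library 1, 93.1%, lies within the control range.

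Gckr (ENSMUSG00000059434, chromosome 5, 31297443 to 31327314, plus strand, 17 exons) encodes the glucokinase regulatory protein, which in liver holds the glucose-phosphorylating enzyme in the nucleus. It had 2, 4, 4 and 2 counts in controls 1 to 4, and 4, 3, 4 and 2 counts in libraries 1, 2, 4 and 5 of the β-tetO-NICD group. These levels are at or next to the floor of 3 counts, no fold is given, and Gckr did not reach the count filter for testing. Without that filter it did not pass (adjusted p = 0.905, edgeR). Hepatocyte markers were also low, with 10.4 to 22.9 summed CPM over 7 genes in controls against 14.9 to 19.7 under NICD.

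G6pc2 (ENSMUSG00000005232, chromosome 2, 69211073 to 69227841, plus strand, 5 exons in 1892 bases), the islet form of the phosphatase, changed most among the members. Its counts were 34186, 45443, 40447 and 47237 in controls 1 to 4, and 8383, 6768, 9087 and 6369 in libraries 1, 2, 4 and 5 of the β-tetO-NICD group. In CPM these were 1577, 1919, 1600 and 1917 against 398, 296, 302 and 321. Each group was tight, with coefficients of variation of 10.9% and 14.4%, and the lowest control was far above the highest β-tetO-NICD library. The mean fell from 1753 ± 191 to 329 ± 47.4 CPM (SD over 4 libraries each). The log2 fold change was −2.41 ± 0.19 (SE, 95% interval −2.83 to −2.0), with an adjusted p of 0.000138 by edgeR's quasi-likelihood test. By p value G6pc2 ranked 19 of 15082 genes, and 24 of the 388 genes called lower had a lower log2 fold change. Groups did not overlap for 16.1% of all tested genes, and for 3 members, G6pc2, Slc2a2 and Slc2a1.

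The fall of G6pc2 passed 0.05 in all 23 alternative fits, of which the 2 by sign of the length trend have 1 library in one group, assumed to vary like those of the other. With 1 library left out at a time, the log2 fold change lay between −2.52 and −2.36. Among libraries with a positive length trend, β-tetO-NICD library 1 had 398 CPM against a mean of 1804 CPM in 3 controls, and among those with a negative trend 3 β-tetO-NICD libraries had a mean of 306 CPM against 1600 CPM in control 3. In the 5 libraries without Eif2s3y counts it was −2.25 (adjusted p = 0.0187, edgeR). No gene is annotated as overlapping G6pc2.

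G6pc3 (ENSMUSG00000034793, chromosome 11, 102189620 to 102194081, plus strand, 6 exons), the phosphatase form made in most tissues, had 36.5, 36.6, 38.3 and 39.6 CPM in controls 1 to 4, and 28.6, 42.7, 41.5 and 47.2 CPM in libraries 1, 2, 4 and 5 of the β-tetO-NICD group. The controls lay within the range of the β-tetO-NICD libraries, of which library 1 was the lowest. The log2 fold change was 0.08 ± 0.16 (SE, 95% interval −0.28 to 0.45, adjusted p = 0.737, edgeR), which leaves out a fall of the size of G6pc2. G6pc (ENSMUSG00000078650, chromosome 11, 101367561 to 101377903, plus strand), the form of liver and kidney, had 0, 1, 1 and 2 counts in controls 1 to 4 and 4, 2, 0 and 0 in libraries 1, 2, 4 and 5 of the β-tetO-NICD group, and did not reach the count filter for testing. Without that filter G6pc did not pass (adjusted p = 0.752, edgeR).

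Per kilobase, G6pc2 was at 927 ± 101 CPM in controls against 174 ± 25.1 CPM in β-tetO-NICD islets (SD, n = 4 each), and G6pc3 at 24 ± 0.942 and 25.4 ± 5.07 CPM. G6pc2 was therefore still the most abundant catalytic subunit in every β-tetO-NICD library. Its share of the 3 subunits went from 97.5% ± 0.255 to 87.0% ± 3.37 (SD, n = 4 each), and that of G6pc3 from 2.54% ± 0.256 to 13% ± 3.38, with no overlap between groups. G6pc2 makes up most of the sum, so both shares depend on the G6pc2 level. Controls held 41.8 to 52.5 G6pc2 counts for each G6pc3 count and β-tetO-NICD libraries 6.80 to 13.9.

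Slc37a4 (ENSMUSG00000032114, chromosome 9, 44396852 to 44402968, plus strand, 9 exons) carries glucose-6-phosphate into the endoplasmic reticulum, where the phosphatases act. It had 80.8, 93.6, 97.1 and 87.5 CPM in controls 1 to 4, and 67.0, 108, 91.4 and 92.5 CPM in libraries 1, 2, 4 and 5 of the β-tetO-NICD group. The groups overlapped, with both the lowest and the highest library in the β-tetO-NICD group. The means were 89.7 ± 7.14 and 89.8 ± 17.0 CPM (SD, n = 4 each). The 95% interval of the log2 fold change ran from −0.37 to 0.37 (adjusted p = 0.998, edgeR). The number of G6pc2 counts for each Slc37a4 count was 16.5 to 21.9 in controls against 2.73 to 5.95 under NICD.

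**Figure D3:**
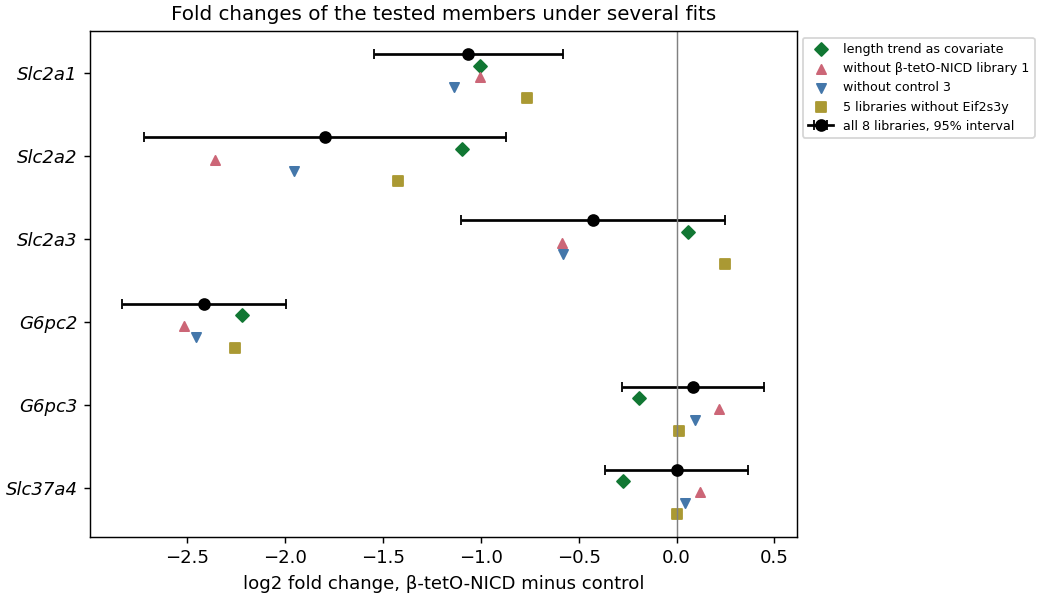
Log2 fold change (β-tetO-NICD minus control) of the 6 tested genes: black points with 95% intervals are the fit of 8 libraries, and the other marks are 4 further fits, with the length trend as a covariate, without β-tetO-NICD library 1, without control 3, and in the 5 libraries without Eif2s3y counts. Over the 5 fits drawn, G6pc2 lies between −2.52 and −2.22 and Slc2a2 between −2.36 and −1.10.

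The falls were set against the other RNA of the islet cells. β cell markers were lower in 2 of 9 genes (Ucn3 and Ero1lb) and higher in none by edgeR, with 3 of 9 below an unadjusted p of 0.05, all lower. Their median log2 fold change was −0.65. Their sum was 156014 to 196720 CPM in controls against 72304 to 172199 CPM under NICD. Of 6 α cell markers, 2 were higher by edgeR (Irx1 and Irx2), with a median log2 fold change of 1.32. The log2 fold change of Gcg, the glucagon gene, was 1.44 (adjusted p = 0.0622, edgeR) and that of Slc7a2 was −0.55 (adjusted p = 0.227, edgeR). The 6 together had 267367 to 1096474 counts in controls against 1309796 to 1677454 under NICD. Of 4 δ cell markers, 1 was higher (Hhex, 1.01, adjusted p = 0.0436, edgeR), with a median of 0.93, and Sst had 1.46 (adjusted p = 0.0619, edgeR). By limma-voom 1 of these 4 was higher, and by DESeq2 3 were. Acinar markers passed in 0 of 20 genes by edgeR, limma-voom or DESeq2, with 0 of 20 below an unadjusted p of 0.05. The part of these changes in the members' results was not tested, but the members can be set against insulin RNA of the same library.

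For each 1000 counts of Ins1 and Ins2, controls 1 to 4 held 10.2, 12.4, 9.02 and 13.5 G6pc2 counts, and β-tetO-NICD libraries 1, 2, 4 and 5 held 6.27, 2.58, 3.57 and 2.05. The groups did not overlap on this scale, and the ratio of the means was 3.12. Slc2a2 had 3.70, 3.34, 1.85 and 4.11 counts in controls against 4.48, 0.759, 1.55 and 0.473 under NICD. Library 1 thus had more Slc2a2 for its insulin RNA than any control, and the other 3 had less than every control. Slc2a1 overlapped on this scale, at 0.0919 to 0.191 in controls against 0.0580 to 0.137 under NICD. Ins1 and Ins2 themselves differ between the libraries, so these ratios are descriptions. Library 1 has a positive length trend, as do controls 1, 2 and 4. Control 3, the lowest control for each gene on this scale, has a negative one, as do libraries 2, 4 and 5. The part of the length trend in these ratios was not tested.

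**Figure D4:**
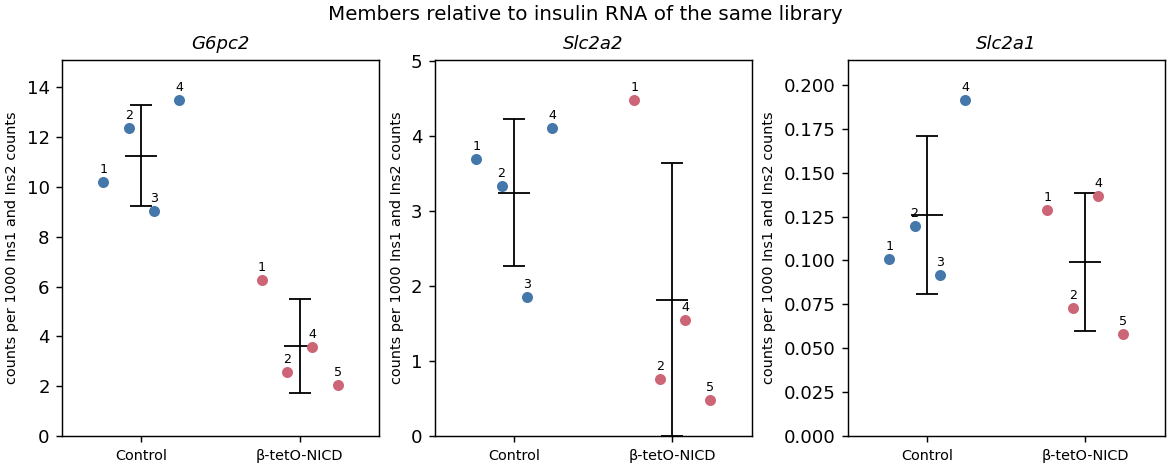
Counts of G6pc2, Slc2a2 and Slc2a1 for each 1000 Ins1 and Ins2 counts of the same library (points, numbered by library), with the mean and SD of 4 libraries (black, the lower bar ending at 0 where the SD exceeds the mean). The groups are apart for G6pc2 alone, and β-tetO-NICD library 1 has the highest Slc2a2 value of all 8 libraries.

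The members differed in how alike their patterns were over the 8 libraries. Pearson's r of log2 CPM, given as a description over libraries that share their groups, was 0.90 between G6pc2 and Slc2a2, 0.90 between G6pc2 and Slc2a1, and 0.79 between Slc2a2 and Slc2a1. It was −0.23 between G6pc2 and G6pc3. The genes most like G6pc2 were Ube2j1 (r = 0.99), Syndig1, B3galt1, Cyp4f39 and Gramd1c, and Slc2a2 came at rank 329. The genes most like Slc2a2 were Apba1, Thsd4, Cdhr1, Usp33 and Ppip5k1, with r between 0.997 and 0.998, and G6pc2 came at rank 1573.

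Other genes of glucose handling, 53 in 8 classes, were read beside the members. Of the 48 tested, 5 were lower, 3 higher and 40 did not pass, which is 16.7% called against 6.76% of all genes, and their median log2 fold change was −0.01. With 1 library left out, the count of 8 became 3 (without control 1, 2 or 4 or β-tetO-NICD library 2 or 4), 5 (without control 3 or β-tetO-NICD library 5) or 13 (without β-tetO-NICD library 1), and it was 3 with the length trend as a covariate. Of all genes, the leave-out fits with 3 calls in this list called 319 to 503, and those with 5 called 866 and 603. Without β-tetO-NICD library 1, 4954 of 14902 genes were called, and with the length covariate 431 of 15082. Among 8 other facilitative transporters tested, Slc2a5, the fructose transporter gene, fell from 268 ± 10.1 to 181 ± 15.5 CPM (log2 fold change −0.57, adjusted p = 0.0357, edgeR). Slc2a13, which encodes a proton-coupled inositol transporter, fell from 43.9 ± 11.2 to 16.9 ± 3.95 CPM (−1.37, adjusted p = 0.00997, edgeR). Of 5 other hexose kinases, Adpgk, an ADP-dependent glucokinase, fell from 16.9 ± 2.22 to 10.4 ± 1.04 CPM (−0.70, adjusted p = 0.0298, edgeR). The hexokinase genes Hk1 and Hk2 had control means of 17.2 and 1.02 CPM, β-tetO-NICD means of 18.6 and 1.11 CPM, and did not pass. Neither did the fructokinase gene Khk (29.7 ± 6.07 and 29.8 ± 7.66 CPM), Slc5a9, a gene of the sodium-coupled transporters (2.77 ± 0.707 and 2.84 ± 0.341 CPM), or Slc37a3, a relative of Slc37a4 (70.7 ± 3.86 and 53.0 ± 6.03 CPM, adjusted p = 0.0779, edgeR).

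Beyond glucose-6-phosphate, 0 of 8 genes that use it, such as Gpi1 (155 ± 11.6 and 169 ± 15.3 CPM), passed by edgeR or limma-voom, against 1 by DESeq2 and 1 below an unadjusted p of 0.05 in edgeR. At the next step Pfkfb2, which makes the activator of phosphofructokinase, fell from 87.8 ± 24.4 to 38.5 ± 13.8 CPM (−1.19, adjusted p = 0.0368, edgeR), although β-tetO-NICD library 1 at 58.7 CPM was above control 3 at 52.7 CPM. Fbp2, a fructose bisphosphatase gene known from muscle, rose from 5.12 ± 1.5 to 24.3 ± 9.34 CPM (2.24, adjusted p = 0.00572, edgeR). The phosphofructokinase gene Pfkm was at 66.1 ± 3.6 and 62.9 ± 9.16 CPM and did not pass. Fbp2 and Slc2a13 passed in 8 of 8 fits with a library left out. Slc2a5 passed in 2 (without β-tetO-NICD library 1 or 5), Pfkfb2 in 2 (without β-tetO-NICD library 1 or control 3) and Adpgk in 1 (without β-tetO-NICD library 1).

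Among glucose-responsive regulators, 3 of 4 passed, and not in one direction. Mlxipl, the gene of the glucose-sensing factor ChREBP, fell from 138 ± 35.0 to 64.1 ± 22.6 CPM (−1.11, adjusted p = 0.0445, edgeR). Txnip and Arrdc4, α-arrestin genes known as targets of that factor, rose from 270 ± 37.1 to 443 ± 68.7 CPM (0.71, adjusted p = 0.0409, edgeR) and from 13.9 ± 2.15 to 41.0 ± 11.2 CPM (1.56, adjusted p = 0.00304, edgeR). Arrdc4 passed in 8 of 8 fits with a library left out, whereas Mlxipl passed in 2 (without β-tetO-NICD library 1 or control 3) and Txnip in 2 (without β-tetO-NICD library 1 or 5). With the length trend as a covariate, Slc2a5 (−0.65), Fbp2 (1.45) and Arrdc4 (1.42) passed. The other 5 did not. As a ratio of log2 fold changes, Adpgk (−0.75), Txnip (0.70) and Slc2a13 (−1.03) moved by less than 1.5 times. Pfkfb2 (−0.58) and Mlxipl (−0.63) moved by more on that scale, as did Fbp2.

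Of 8 islet transcription factor genes known to act on Slc2a2 or G6pc2, 0 passed by edgeR or limma-voom, against 2 by DESeq2 and 2 below an unadjusted p of 0.05 in edgeR, both lower. Pax6 was at 242 ± 23.0 CPM in controls against 159 ± 31.9 CPM under NICD (log2 fold change −0.61, adjusted p = 0.0598, edgeR). Neurod1 went from 98.7 ± 13.3 CPM in controls to 67.2 ± 11.9 CPM under NICD (−0.55, adjusted p = 0.0687, edgeR). Pdx1 and Nkx6-1 each had a log2 fold change of 0.04. Mafa had one of −0.86 with a wide 95% interval, −1.85 to 0.14 (adjusted p = 0.207, edgeR).

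**Figure D5:**
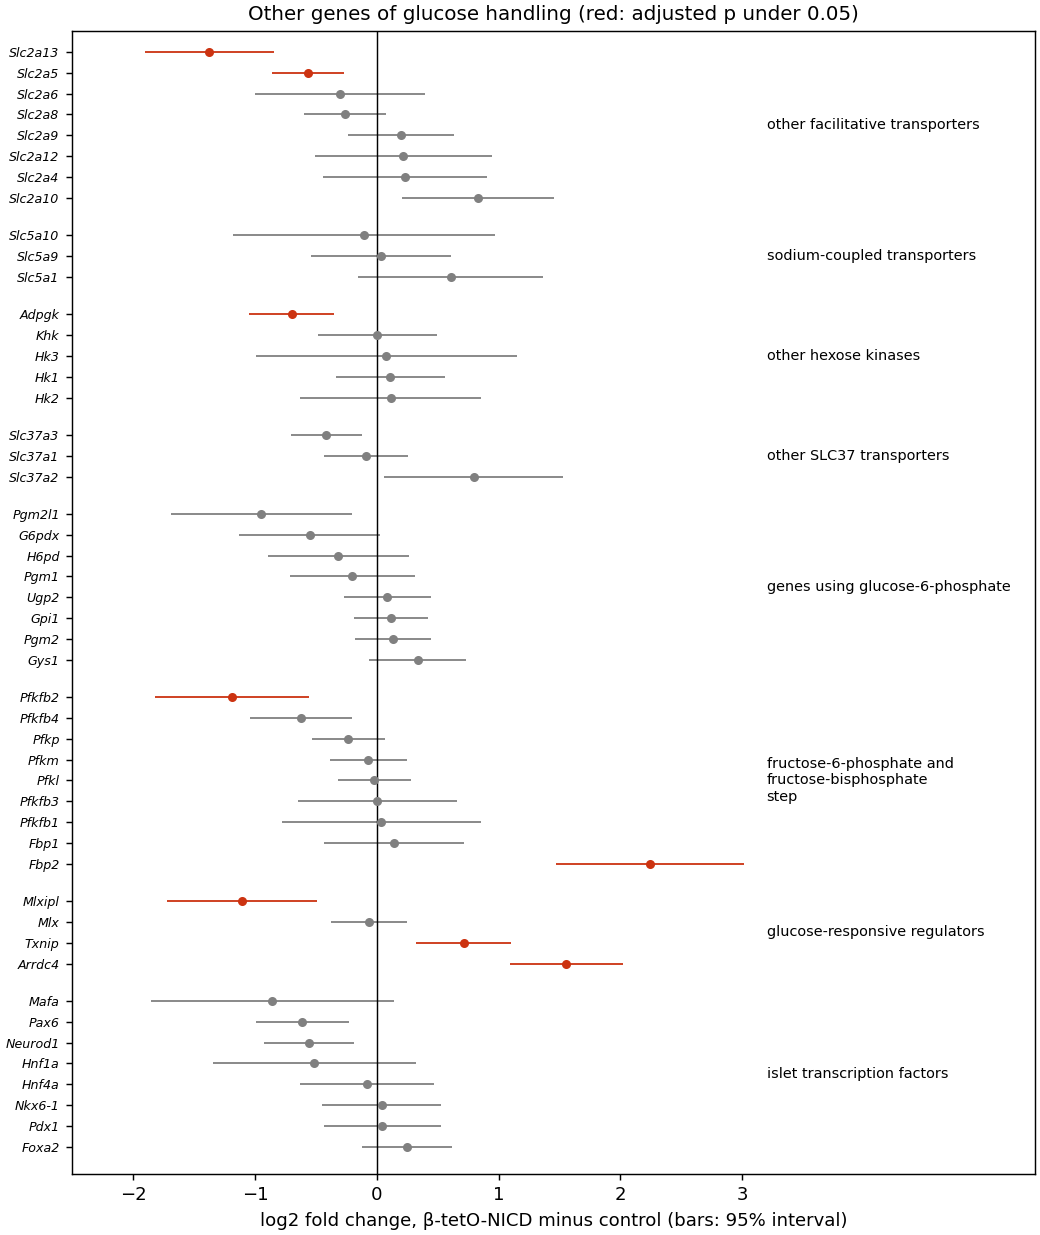
Log2 fold change (β-tetO-NICD minus control) with 95% interval for 48 other genes of glucose handling, grouped by class. The 8 genes in red passed an adjusted p of 0.05, 5 lower and 3 higher, and most of the others lie near 0.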

How the data were processed

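The authors used Kallisto to pseudoalign reads of stranded poly(A) libraries to GRCm38 transcripts and deposited whole-number counts per gene symbol, not normalized. The Kallisto version, the annotation release and the rounding are not given in the sources used here. The authors' own limma comparison, a table of fold changes, mean expression, test statistics and p values, was not used. Every column of per-sample values (0 were left out) was assigned by its name. The members and lists were chosen with earlier results of these data known.

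Genes reaching 10 counts in 4 or more of the 8 libraries were kept, normalized by TMM and compared with edgeR 4.0.16 (quasi-likelihood test, R 4.3.3). P values were adjusted over all genes by the Benjamini-Hochberg method, with a threshold of 0.05. CPM are normalized by TMM. The fits were tested on simulated data. The smallest chi-square per gene between libraries of a group was 31.5, so each counted as 1 replicate, and p values measure the spread between libraries. Named genes were the 8 members, the other glucose genes that passed or had the highest mean CPM of their class over all 8 libraries, and the 5 genes most correlated with G6pc2 and with Slc2a2. Names beyond that rule (Hk1, Hk2, Neurod1, Pdx1, Nkx6-1, Mafa and the cell type markers) were chosen after their values were seen. Positions and lengths are from GENCODE M21. A listed marker gene is not reported here.

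Alternatives were DESeq2 1.42.0, limma-voom (limma 3.58.1), other size factors and low-count filters, removal of the 10 most abundant genes, covariates for acinar score, length trend and Eif2s3y, the replicate number as a block, each library left out and, chosen after seeing the data, 3 subsets of libraries.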

Additional observations from a re-analysis of the deposited data

How the results depend on the processing

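The call for G6pc2 held in 23 of 23 alternatives. Slc2a1 no longer passed with the length trend as a covariate (−1.01), in the 5 libraries without Eif2s3y counts (−0.76) and in the libraries with a positive (−1.32) or negative (−0.75) length trend, and ranged from −1.18 to −0.85 with a library left out. Slc2a2 no longer passed with Eif2s3y as a covariate (−1.92), in those 5 libraries (−1.42) or in the positive (−0.97) and negative (−1.74) sets, and ranged from −2.36 to −1.58 with a library left out. Each set by length trend has 1 library in one group, assumed to vary like the others. Members that did not pass in the fit of all libraries changed sign in some alternatives. G6pc3 was −0.19 with the length covariate, −0.39 in the positive set and −0.0010 to 0.22 with a library left out. Slc2a3 was 0.059 with the length covariate, 0.25 in the 5 libraries and 0.0045 in the negative set. Slc37a4 was −0.017 with limma-voom, −0.029 with total counts, −0.0066 without a count filter, −0.28 with the length covariate, −0.018 with the replicate block, −0.38 in the positive set and −0.096 to 0.12 with a library left out. The causes were not tested.

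Genes called numbered 1020 of 15082, 2739 with DESeq2, 431 with the length covariate, 104 in the 5 libraries, 85 and 77 in the positive and negative sets, and 319 (without β-tetO-NICD library 2) to 4954 (without β-tetO-NICD library 1) with a library left out. Members called numbered 1 in each subset and 1 to 3 with a library left out, with 1 left without control 2, control 4 or β-tetO-NICD library 2. Other glucose genes called numbered 8, and 14 with DESeq2, 5 with total counts, 3 with the length covariate, 4 with Eif2s3y as a covariate, 1 in the positive and 1 in the negative set, and 3 (without control 1, 2 or 4 or β-tetO-NICD library 2 or 4) to 13 (without β-tetO-NICD library 1) with a library left out. In the 5 libraries edgeR called 0 of 47, with 12 below an unadjusted p of 0.05. Without length scaling, the control shares were 97.9% for G6pc2 and 94.7% for Slc2a2. With the replicate block, 970 genes were called and no member's call changed. The numbers 1 and 2 alone are settled in both groups, and same-numbered libraries deviated with r = 0.27 and −0.09. At these depths G6pc and Gckr had at most 4 counts in any library, too few to reach the count filter.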
